A study of Mus musculus with 22 samples.

Results

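Blood lineage transcription factors were described gene by gene in fetal mice with and without Rlf, across liver RNA-seq and whole genome bisulphite sequencing (WGBS). The 10 genes are Gata1, Gata2, Tal1, Runx1, Spi1, Gfi1b, Zfpm1, Myb, Ikzf1 and Klf1. They were taken by name from a list. All 10 are among the 37991 genes of the RNA-seq tables, and 9 of them are among the 21418 protein-coding genes on autosomes, since Gata1 lies on chromosome X.

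RNA-seq was available for 3 wild-type (Rlf +/+) and 3 homozygous mutant (Rlf MommeD28/MommeD28) E14.5 fetal livers, of which replicate 3 of each genotype is female and the others male. WGBS was available for 2 wild-type and 2 mutant samples of each of 3 tissues. These were whole E10.5 embryos, all male, E14.5 livers, 1 male and 1 female of each genotype, and E18.5 livers, all female. MommeD28 is an ENU-induced allele that the study treats as null. Every mouse, wild types included, is of the FVB/NJ strain (Line3) and homozygous for a GFP reporter array driven by a human alpha-globin promoter with its enhancer. The 4 E14.5 livers used for WGBS were littermates, and the study calls the 3 RNA-seq livers of each genotype independent biological replicates. No source used here says more on how the samples relate. An E10.5 embryo holds all tissues, whereas the fetal liver holds erythroblasts, other blood cells and hepatoblasts together. Tissue and stage differ together between embryo and liver and cannot be told apart. Sex differs between the WGBS tissues as well, though the E14.5 livers hold both sexes, and its part was not tested.

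These proteins form the regulatory network of blood cell formation. Gata2, Tal1, Runx1 and Myb act in haematopoietic stem and progenitor cells, Gata1, its cofactor Zfpm1 (FOG-1) and Gfi1b act in erythroid and megakaryocytic differentiation, Klf1 drives the erythroid fate and restrains the megakaryocytic one, and Spi1 (PU.1) and Ikzf1 (Ikaros) drive myeloid and lymphoid fates. Tal1 binds DNA with E-protein partners and joins Gata factors in shared complexes, and the fetal liver is the main site of blood formation in mid-gestation. DNA methylation at CpG dinucleotides is usually absent from CpG-rich promoters and lower at regulatory elements that are in use.

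To show where the members differed strongly between tissues, 160 bases were taken from 1 tile of each of 8 genes. Tiles were tried in order of their difference between E10.5 embryo and E14.5 liver. Within a tile the 160 bases with the largest difference were kept, among those with 3 or more measured CpGs and no untranslated exon sequence. Where a tile held none, the next was tried. Another 160 bases were taken from Runx1 for the genotypes in this way, and not from the tile with the largest difference. The stretches were chosen for these differences, so their values are a description. Sequences are from the reference genome NCBIM37 (mm9), 5′ to 3′ on the strand of the gene, and capitals mark the CpGs that were measured. Letters of 5 binding motifs were searched on both strands, and matches that overlapped another motif were kept. AGATAA, a form of the letters to which the zinc fingers of Gata1 and Gata2 bind, occurred in 8.32% of the central 160 bases of all 503471 tiles. Other forms of these letters were not searched, so a stretch without AGATAA may still hold such a site. The E-box CANNTG, to which Tal1 binds with its partners, occurred in 58.9%. CCACACCC, which Klf1 binds, occurred in 1.34%, TGTGGT, which Runx1 binds, in 12.01% and GAGGAA, which Spi1 binds, in 14.52%. A match is a description of the letters only.

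The Gata2, Myb and Zfpm1 stretches are introns, at chr6:88154794-88154953 (+), chr10:20865173-20865332 (-) and chr8:124833121-124833280 (+). In Gata2 methylation was 6.99% in E10.5 embryo, 66.2% in E14.5 liver and 57.5% in E18.5 liver. In Myb it was 5.71%, 69.1% and 53.2%. In Zfpm1 the means had the opposite order, with 85.6%, 4.42% and 13.004%, from as few as 34 reads in a library. The livers of both stages overlapped in Gata2 and in Zfpm1, and did not in Myb. CANNTG was present at 2 places in the Myb stretch and TGTGGT at 1 place in that of Zfpm1.
Gata2: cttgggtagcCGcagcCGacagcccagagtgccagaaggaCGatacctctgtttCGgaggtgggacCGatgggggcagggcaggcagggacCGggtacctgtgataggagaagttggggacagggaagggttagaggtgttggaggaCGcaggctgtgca
Myb: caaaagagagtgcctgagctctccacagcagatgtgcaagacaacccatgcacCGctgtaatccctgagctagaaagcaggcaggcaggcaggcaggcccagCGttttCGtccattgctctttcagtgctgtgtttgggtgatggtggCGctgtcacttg
Zfpm1: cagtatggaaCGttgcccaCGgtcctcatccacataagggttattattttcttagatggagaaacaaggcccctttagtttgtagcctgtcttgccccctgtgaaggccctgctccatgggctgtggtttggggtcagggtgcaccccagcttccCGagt

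The Runx1 stretch, chr16:92825481-92825640 (-), lies in the intron next to the distal start, and that of Klf1, chr8:87425230-87425389 (+), lies upstream of its start. The Gfi1b stretch, chr2:28474461-28474620 (-), and the Ikzf1 stretch, chr11:11629307-11629466 (+), are intronic. Each was highly methylated in E10.5 embryo, and its mean was lowest in E14.5 liver, though for Gfi1b the livers of both stages overlapped. Mean methylation was 92.1%, 10.1% and 24.6% in the 3 tissues for Runx1, 74.6%, 10.8% and 28.1% for Klf1, 91.6%, 14.7% and 16.2% for Gfi1b and 88.0%, 13.1% and 37.9% for Ikzf1. AGATAA was present once in the Runx1 and once in the Ikzf1 stretch, and CANNTG once in that of Runx1.
Runx1: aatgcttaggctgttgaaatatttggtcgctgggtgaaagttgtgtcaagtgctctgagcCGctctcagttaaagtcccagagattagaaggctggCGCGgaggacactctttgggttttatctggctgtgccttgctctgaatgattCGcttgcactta
Klf1: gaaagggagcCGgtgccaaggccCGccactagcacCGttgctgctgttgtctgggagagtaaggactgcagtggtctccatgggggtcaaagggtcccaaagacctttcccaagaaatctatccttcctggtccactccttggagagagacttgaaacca
Gfi1b: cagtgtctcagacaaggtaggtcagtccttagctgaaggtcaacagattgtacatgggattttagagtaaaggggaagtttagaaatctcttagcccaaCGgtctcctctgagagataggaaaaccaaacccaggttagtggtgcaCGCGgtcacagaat
Ikzf1: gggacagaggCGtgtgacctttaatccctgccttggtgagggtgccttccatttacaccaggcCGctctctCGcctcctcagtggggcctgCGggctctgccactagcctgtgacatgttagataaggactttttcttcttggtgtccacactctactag

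The Spi1 stretch, chr2:90937134-90937293 (+), overlaps a coding exon, with 88.8%, 26.5% and 31.2%, and holds CANNTG and GAGGAA once each. The livers of both stages overlapped there, with as few as 22 reads in a library. The second Runx1 stretch, chr16:92606358-92606517 (-), overlaps a coding exon at the 3′ end of the gene. In E10.5 embryo its methylation was 12.4% ± 3.69 in wild types and 41.7% ± 15.5 in mutants (SD, n = 2 each). It holds TGTGGT and GAGGAA once each.
Spi1: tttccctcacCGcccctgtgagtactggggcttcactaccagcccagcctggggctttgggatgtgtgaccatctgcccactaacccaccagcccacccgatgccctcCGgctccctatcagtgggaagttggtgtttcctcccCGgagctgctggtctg
Runx1, genotypes: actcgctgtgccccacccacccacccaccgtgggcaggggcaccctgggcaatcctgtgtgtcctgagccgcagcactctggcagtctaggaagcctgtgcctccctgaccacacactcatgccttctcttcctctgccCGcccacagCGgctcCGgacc

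The RNA-seq libraries held 12928313 to 14621004 counts. Reads per autosomal CpG numbered 15.1 to 17.2 for the embryos, 29.7 to 33.5 for the livers of E14.5 and 16.1 to 16.6 for those of E18.5. Autosomal methylation was 70.4% to 73.8%, 56.3% to 60.2% and 61.2% to 65.4%, and the highest E18.5 value, mutant replicate 1, stood apart from the other 3 livers (61.2% to 61.6%). Rlf itself had 68.9 to 72.3 CPM (counts scaled to the effective size of each library) in wild-type and 67.6 to 79.8 in mutant livers (adjusted p = 0.646), so the count gives no check of the labels, and the study genotyped the embryos by Sanger sequencing. In the livers all 11 erythroid and all 12 hepatoblast markers matched were tested, with summed levels of 30193 to 55448 and 58370 to 69203 CPM in wild types, against 37372 to 40786 and 71297 to 82784 CPM in mutants. No RNA was available for the WGBS samples, so their cell makeup was not checked.

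The 10 genes spanned a wide range of levels in E14.5 liver. Levels between genes are CPM per kb of exon (GENCODE vM1), over the 6 livers. Klf1, the activator of adult beta-globin, stood highest at 277 to 364, above 99.1% of the 14162 genes with a length and a test. Tal1 followed at 153 to 192, Zfpm1 at 114 to 137, Gata1 at 95.3 to 120.0, Gfi1b at 64.6 to 74.7 and Ikzf1 at 44.1 to 48.1. These lay above 98.1%, 97.2%, 96.4%, 93.7% and 89.6% of genes. Myb, which maintains progenitors, had 16.0 to 20.7, Spi1 7.44 to 10.6, Gata2 2.28 to 4.08 and Runx1 2.24 to 3.28. Myb, Spi1, Gata2 and Runx1 lay above 73.2%, 55.6%, 32.2% and 29.7% of genes. In this order 2 pairs of neighbours overlapped in range, Zfpm1 with Gata1 and Gata2 with Runx1.

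**Figure D1:**
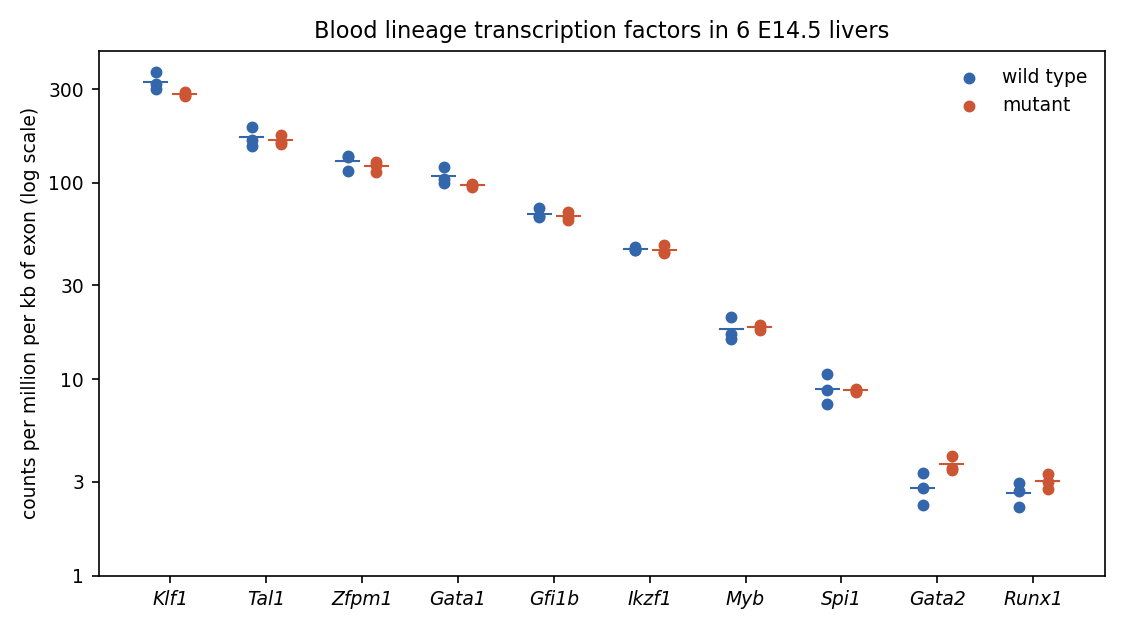
Levels of the 10 genes in the 6 E14.5 livers, in CPM per kb of exon on a log axis, with 1 point per liver, a bar at each mean and a colour for each genotype. Klf1 lies at 277 to 364 and Runx1 at 2.24 to 3.28, and the genotypes of most genes overlap.

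To ask whether loss of Rlf altered the expression of these factors, the genotypes were compared in the E14.5 livers with edgeR's quasi-likelihood test, adjusted over all 14183 genes that passed the filter on low counts. All 10 members passed the filter and 0 were called at an adjusted p under 0.05, against 1.39% of all genes. At an unadjusted p under 0.05 there were 2 members, Klf1 and Gata2, and 2071 of all 14183 genes. DESeq2 also called 0 members, and so did the fit with the replicate block, which called 460 genes in all against 197 without it. In whole livers, fewer cells of a type and less RNA per cell cannot be told apart.

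Klf1 had 559, 489 and 458 CPM in wild-type and 446, 425 and 428 CPM in mutant livers. All 3 mutant livers lay below all 3 wild types, by 0.21 on the log2 scale (log2 change -0.21, SE 0.077, 95% interval -0.38 to -0.04, adjusted p = 0.226). Gata1, the master regulator of erythroid genes, was close in pattern, with 292, 244 and 255 CPM against 238, 232 and 241 CPM. Its groups did not overlap either, and its log2 change of -0.15 (SE 0.075, interval -0.32 to 0.01) had an adjusted p of 0.367. Gata2 had 7.63, 11.1 and 9.33 CPM in wild types and 13.7, 11.8 and 11.6 CPM in mutants. It was the one member whose mutant livers all lay higher (log2 change 0.39, SE 0.14, interval 0.08 to 0.71, adjusted p = 0.228). Non-overlap of the groups, seen in these 3 of 10 members, occurred in 20.3% of all genes.

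The other 7 members had overlapping groups. Tal1 had 841, 670.2 and 724 CPM in wild-type and 762, 691 and 706 CPM in mutant livers, and the interval of its log2 change was -0.23 to 0.13. Runx1 had 17.5, 23.1 and 21.0 CPM against 25.6, 23.4 and 21.6 CPM, with an interval of -0.05 to 0.44. Spi1 had 20.1, 28.5 and 23.6 CPM against 23.6, 24.2 and 23.2 CPM, with an interval of -0.28 to 0.22. In each of these the wild-type livers were more scattered than the mutant livers. For Zfpm1, Gfi1b, Ikzf1 and Myb the intervals lay between -0.26 and 0.23. Within same-numbered livers, Runx1 was higher in the mutant of all 3 pairs and Zfpm1 and Gfi1b were lower in all 3. With Klf1, Gata1 and Gata2 this makes 6 of 10 members with 1 direction in all pairs, where 39.4% of all genes had one, a count added after seeing the data. The median log2 change was -0.04 over the members and -0.0017 over all genes.

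Other genes of the network gave 0 calls, where 1.39% of all tested genes were called. Of 31 cofactors, family members and other lineage factors, among them Lmo2, Ldb1, Cbfb, Fli1, Nfe2 and Cebpa, 30 were tested and 0 were called, with a median log2 change of 0.00. Of 20 erythroid genes that Gata1 or Klf1 activate, such as globins, Alas2 and Epor, 19 were matched and tested, 0 were called and the median was -0.11. The wild-type livers disagreed most here, with a summed level of 37926 to 67203 CPM against 45689 to 50330 CPM in mutants. Of 12 myeloid genes that Spi1 activates, such as Csf1r and Itgam, 0 were called and the median was -0.06.

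Some markers of other cells were called between the genotypes, where 1.39% of all tested genes were. Of 9 neutrophil markers, 6 were lower in the mutants (Elane, Ltf, S100a8, S100a9, Ngp and Camp), and the summed level was 912 to 1330 CPM in wild types and 753 to 877 CPM in mutants. Of 9 megakaryocyte markers, 2 were higher, Pf4 (log2 change 0.40) and Itgb3 (0.46), and the sum was 676 to 730.1 against 854 to 934 CPM. Of 12 hepatoblast markers 1 was higher, Trf (0.46), and the sum was 58370 to 69203 against 71297 to 82784 CPM, without overlap. The called genes are named after their values were seen. Of the erythroid, progenitor, macrophage, mast, lymphoid and endothelial markers 0 were called, 3 of 8 mast and 3 of 10 lymphoid markers having passed the filter. Summed levels of the 10 progenitor markers were 177 to 196 against 197 to 204 CPM, and of the 8 endothelial markers 319 to 347 against 350.1 to 409 CPM. Those of the macrophage markers (648 to 699 and 667 to 673 CPM), mast markers (8.49 to 11.1 and 7.92 to 9.48 CPM) and lymphoid markers (6.17 to 7.71 and 6.46 to 7.86 CPM) overlapped. No marker list held a gene at 0 in all livers. The part of these cells in the values of Klf1, Gata1 and Gata2 was not tested.

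To ask how the promoters of these factors were methylated, reads over CpGs within 1 kb of the 5′-most start were summed. A CpG was used where each of the 12 libraries had 6 reads or more. Levels are percent of methylated reads as mean ± SD over the 4 libraries of a tissue, both genotypes together. The 9 autosomal promoters fell into low and high ones. Zfpm1 (0.0831% ± 0.037 in E10.5 embryo, 0.0861% ± 0.058 in E14.5 liver, 0.0602% ± 0.027 in E18.5 liver), Tal1 (0.132%, 0.174% and 0.438%) and Myb (0.22%, 0.119% and 0.13%) were nearly free of methylation in every library. Gata2, Ikzf1, Gfi1b and Klf1 stayed at or under 11.99% in every library. The distal Runx1 promoter and the Spi1 promoter were the methylated ones.

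The distal Runx1 promoter had 88.3%, 86.6%, 87.3% and 85.3% in E10.5 embryos, 25%, 22.3%, 21.2% and 21.7% in E14.5 livers and 30.7%, 27.1%, 32.5% and 23.4% in E18.5 livers, with wild types given first. No embryo overlapped a liver (E14.5 against E10.5, -64.3 points, adjusted p = 3e-23). The Spi1 promoter had 78.3% to 79.9%, 38.5% to 42.7% and 41.5% to 47.8% (-38.7 points, adjusted p = 1.38e-17). The windows held 36 and 24 measured CpGs, close to the 27 of Gfi1b and 32 of Klf1, whose window averages were low. The other 5 members had more, at 100 to 195. Part of the Klf1 window was methylated in E10.5 embryo. The printed Klf1 stretch inside it, chosen for its difference, had 74.6% there, 10.8% in E14.5 liver and 28.1% in E18.5 liver.

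Between E10.5 embryo and E14.5 liver 5 of 9 promoters were called. Those of Runx1, Spi1, Gfi1b and Klf1 were lower in liver and that of Gata2 was higher, where 46% of all 19186 promoters were called lower and 21.2% higher. Gfi1b went from 8.23% ± 0.63 to 1.99% ± 0.27 (adjusted p = 6.27e-12) and Klf1 from 9.28% ± 2.30 to 1.54% ± 0.27 (adjusted p = 1.39e-14). Gata2 went from 0.741% ± 0.20 to 3.80% ± 0.67 (adjusted p = 5.32e-13). With the start of the longest coding transcript, where another start is measured, Gata2 turned to -0.167 points (adjusted p = 0.142) and Ikzf1 to -27.4 points (adjusted p = 1.28e-10). Other settings added calls, with Tal1 called higher in liver at a coverage of at least 1 read (0.357 points against 0.0426, adjusted p = 0.000793) and Myb (adjusted p = 0.0215) and Ikzf1 (adjusted p = 0.000503) called with limma. The members' median difference was -0.101 points and that of all promoters -0.555 points.

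Between E14.5 and E18.5 liver 5 of 9 were called again. Tal1, Runx1, Gfi1b and Klf1 were higher at E18.5 and Ikzf1 was lower, where 15.6% of all promoters were called higher and 9.24% lower. For Runx1, Gfi1b and Klf1 the differences were small beside those from the embryo. Runx1 gained 5.88 points (adjusted p = 0.0258), Klf1 2.08 points (from 1.54% to 3.62% ± 0.55, adjusted p = 0.00024) and Gfi1b 1.31 points (adjusted p = 0.0186). Tal1 gained 0.264 points (adjusted p = 0.00542), and Ikzf1 dropped by 1.87 points, from 4.76% ± 1.09 to 2.89% ± 0.67 (adjusted p = 0.00384). Wild-type libraries alone called 2 of these, Tal1 and Klf1, and limma did not call Ikzf1 (adjusted p = 0.759). Over all 19186 promoters the calls fell as well, from 4764 to 454 in wild types alone and to 3275 with limma. The calls for Runx1 and Gfi1b were each lost without any 1 of several livers (adjusted p of 0.0524 to 0.17 and 0.0512 to 0.142), Runx1 dropping to 3.61 points without E18.5 mutant replicate 1. Gfi1b was also lost at a coverage of at least 10 reads (0.758 points, adjusted p = 0.176). The E14.5 livers enter both tissue contrasts.

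**Figure D2:**
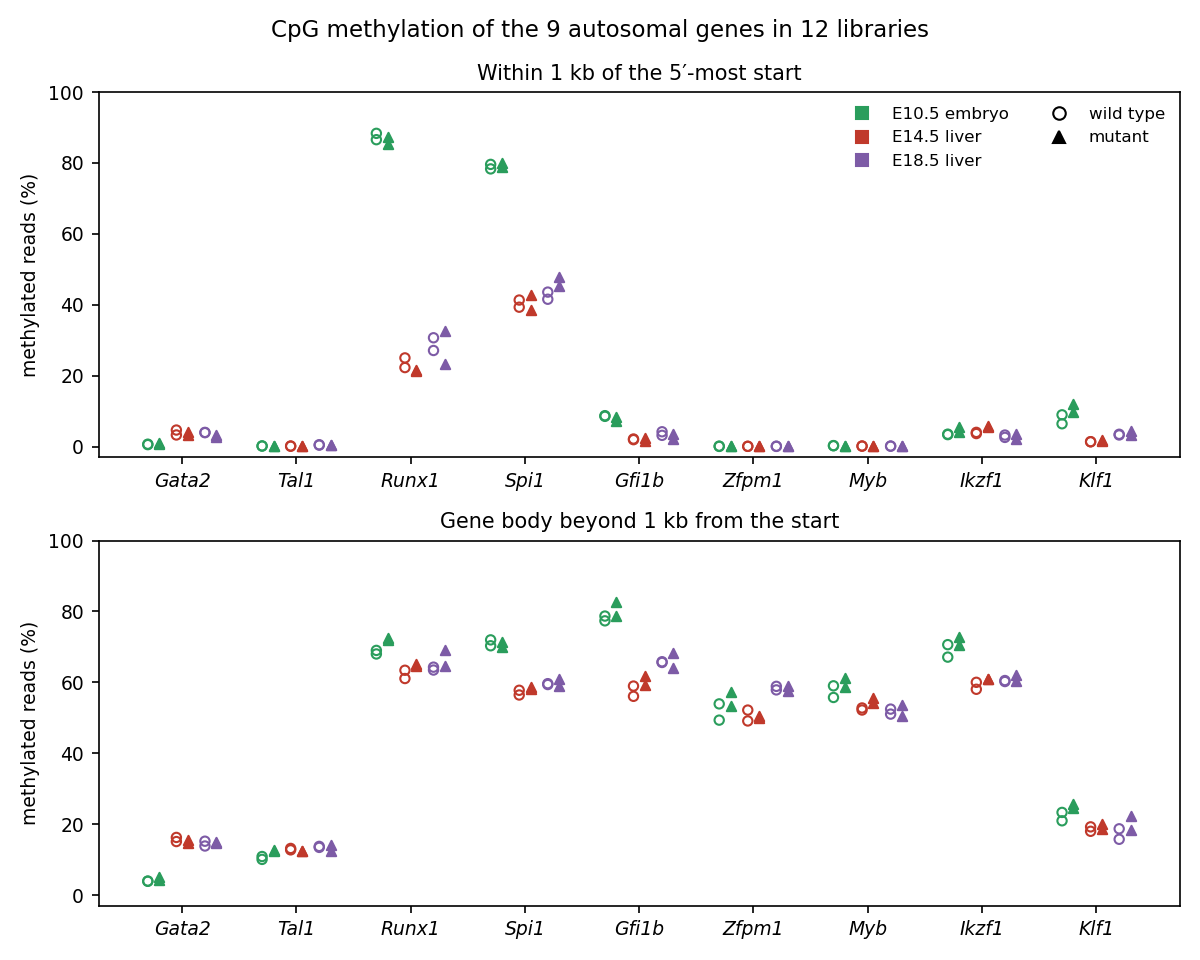
Methylation of promoters (upper) and gene bodies (lower) of the 9 autosomal genes in percent of methylated reads, with 1 point per WGBS library, a colour for each tissue, circles for wild types and triangles for mutants. The distal Runx1 promoter lies at 85.3% to 88.3% in E10.5 embryos and at 21.2% to 25% in E14.5 livers, while the Zfpm1, Tal1 and Myb promoters lie near 0 throughout.

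Several members have more than 1 coding start. Windows at every coding start at least 2 kb from the one before, chosen after seeing the data, gave 15 starts in the 9 genes, of which 7 were called between E10.5 embryo and E14.5 liver (72.8% of all 25893 starts) and 7 between the livers (29% of all). The proximal start of Runx1, 128.738 kb inside the gene, had 0.128%, 0.146% and 0.126% in the 3 tissues. It thus lay near 0 in the same libraries where the distal promoter was at 85.3% to 88.3%. The second start of Spi1, 13.706 kb inside, had 82.6%, 41.9% and 49.5% (adjusted p = 2.67e-19 for E14.5 against E10.5). Between the livers it was called higher at E18.5 (7.62 points, adjusted p = 0.0199), where the first start was not (4.05 points, adjusted p = 0.173), and the difference between the starts was not tested. Ikzf1 starts 5.259 kb and 15.216 kb inside had 70.2%, 42.8% and 40.0% (adjusted p = 4.39e-11) and 85.4%, 82.8% and 84.5%. The second Gata2 start, 4.773 kb inside, stayed at 0.339% to 0.864% in every library.

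The second Tal1 start, 3.082 kb inside, had 1.51% ± 0.99 in E10.5 embryo, 1.80% ± 0.72 in E14.5 liver and 7.91% ± 2.82 in E18.5 liver. This start was called between the livers (adjusted p = 6.81e-10) and not between E10.5 embryo and E14.5 liver (adjusted p = 0.439). It was also the one start called between the genotypes over the mean of 3 tissues, where 7.89% of all starts were called. Mutant minus wild type was 2.30 points (adjusted p = 0.00102). Values were 1.02% and 0.833% in wild-type and 1.23% and 2.97% in mutant embryos. They were 0.94% and 1.46% against 2.39% and 2.41% in E14.5 livers, and 4.47% and 6.82% against 9.66% and 10.7% in E18.5 livers. Mutants lay above wild types in each tissue with no overlap. No single tissue was called, the lowest adjusted p over the 15 starts being 0.103.

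Gene bodies were taken as the span beyond 1 kb from the start. In E10.5 embryo they ranged from 4.29% ± 0.53 in Gata2 to 79.3% ± 2.36 in Gfi1b. Against E14.5 liver 8 of 9 were called, 7 lower in liver and Gata2 higher, where 92.5% of all 18076 bodies were called lower and 3.37% higher. The members' median difference was -4.96 points and that of all bodies -13.4 points.

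Gata2 had 3.87%, 3.95%, 5.02% and 4.33% in E10.5 embryos and 15.1%, 16.2%, 14.8% and 15.7% in E14.5 livers, wild types first. Every liver lay above every embryo (11.2 points, adjusted p = 4.36e-106), and at E18.5 the body remained at 13.8% to 15.2%. Gfi1b showed the largest decrease, from 79.3% ± 2.36 to 59.0% ± 2.33 (-20.4 points, adjusted p = 6.81e-50). Spi1 went from 70.9% ± 0.97 to 57.7% ± 0.96, Ikzf1 from 70.3% ± 2.35 to 60.0% ± 1.36 and Runx1 from 70.4% ± 2.27 to 63.5% ± 1.78. The decreases were smaller in Myb (58.6% to 53.7%, adjusted p = 0.000568), Klf1 (23.6% to 18.99%, adjusted p = 3.92e-05) and Zfpm1 (53.5% ± 3.25 to 50.4% ± 1.29, adjusted p = 0.0283). The call for Zfpm1 is weak. It was lost in wild types alone (-0.99 points, adjusted p = 0.62), with coverage of at least 10 reads (-1.24 points, adjusted p = 0.367), over the whole gene span (-1.44 points, adjusted p = 0.312) and with the replicate block (-3.03 points, adjusted p = 0.0627). It was also lost without E10.5 wild-type replicate 2 (-1.88 points), E10.5 mutant replicate 2 (-2.06 points), E14.5 wild-type replicate 1 (-2.26 points) or either E14.5 mutant (-3.17 and -2.89 points). That for Klf1 was lost with limma (adjusted p = 0.109). Tal1 was not called (11.5% ± 1.30 and 12.6% ± 0.38, adjusted p = 0.0948), but was called higher in liver in wild types alone (2.48 points, adjusted p = 0.00874), with coverage of at least 1 read (3.21 points, adjusted p = 3.26e-05), over the whole gene span (1.05 points, adjusted p = 0.0207) and in the 2 tissues alone (1.11 points, adjusted p = 0.0435).

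From E14.5 to E18.5 liver 73.2% of all bodies were called higher and 1.7% lower. Of the 9 members 2 were called, both higher. Gfi1b went to 65.9% ± 1.73 (6.96 points, adjusted p = 2.18e-05) and Zfpm1 to 58.3% ± 0.73 (7.85 points, adjusted p = 1.9e-07). Tal1 was called higher as well at a coverage of at least 10 reads (1.78 points against 0.764, adjusted p = 0.00639). It was also called with limma (adjusted p = 0.00126), whose own direction was not compared. The members' median difference was 0.815 points, against 4.21 points over all bodies.

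Tiles of 1 kb showed where within the genes these differences lay. The 9 genes hold 401 tiles with at least 5 CpGs, of which Runx1, 224600 bp long, holds 199. A tile was called where its difference exceeded 15 points with an adjusted p under 0.05. Between E10.5 embryo and E14.5 liver 135 member tiles (33.7%) were called lower in liver, against 49.8% of all 503471 tiles, and 22 (5.49%) higher, against 1.16%. In both directions together 157 of the 401 member tiles were called, against 256762 of the 503471 tiles. With a minimum of 25 points this pooled order turned, with 20.7% of member tiles called against 14.4% of all. Shares by direction were not taken at 25 points. Each gene but Tal1 and Gata2 had tiles in the lower class, from 1 of 4 in Klf1 (25%) and 53 of 199 in Runx1 (26.6%) to 30 of 54 in Zfpm1 (55.6%) and 18 of 27 in Spi1 (66.7%). Tal1 had 0 calls in 10 tiles, and 6 of Gata2's 14 were higher and 0 lower. Tiles of 1 gene share their libraries and are not replicates.

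Tiles with higher methylation in liver often overlapped coding exons. Of the 22, 12 did (54.5%), whereas 10 of the 135 lower tiles (7.41%) and 41 of the 244 others (16.8%) did. Over all genes the shares were 21.4%, 19.6% and 34.2%. The 22 tiles also held more CpGs, with a median of 20.5 against 12 and 14. Over all genes the medians had the same order, at 15, 11 and 13. The tiles named next were chosen for the size of their difference.

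Among the tiles higher in liver, Zfpm1 had the largest difference, in coding exon sequence near its 3′ end. That tile, 54.4615 kb from the start with 126 CpGs, ranged over 4.64% to 5.89% in the embryos, 70.3% to 76.3% at E14.5 and 64.6% to 83.1% at E18.5. The tile before it went from 19.1% to 83.3%. In Gata2 the tile with the printed stretch had 4.01% to 7.87%, 55.6% to 63.0% and 47.5% to 56.6%. The 6 higher Gata2 tiles lay 1.62 to 11.6 kb from the start and went from 1.53% to 26.4% in embryo to 17.4% to 65.5% in E14.5 liver. In Myb the coding tile 15.2895 kb inside had 4.62% to 9.05%, 54.3% to 60.9% and 44.2% to 49.7%. The 3′ tile of Spi1, with 52 CpGs, had 10.3% to 15.9%, 46.1% to 54.1% and 44.6% to 54.0%. In each of these 4 tiles all 8 liver libraries lay above all 4 embryos.

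Tiles lower in liver were found in 7 genes. In Runx1 the tile 0.8105 kb inside, next to the distal start, ranged over 90.1% to 91.2% in the embryos, 16.2% to 19.3% at E14.5 and 22.2% to 32.4% at E18.5. A second one 24.8105 kb inside had 70.2% to 75.5%, 7.23% to 12.6% and 17.6% to 22.1%. Zfpm1 was methylated at 80.3% to 88.2%, 9.88% to 12.2% and 23.1% to 30.7% at 27.4615 kb. Zfpm1 thus differed in opposite directions within 1 gene, with introns lower and the 3′ coding exon higher in liver. Ikzf1 had 74.5% to 88.0%, 12.8% to 16.5% and 30.2% to 43.8% at 44.4945 kb. The Klf1 tile at its start had 63.9% to 79.2%, 8.28% to 15.2% and 23.0% to 38.2%. Gfi1b had 76.9% to 81.0%, 16.5% to 20.6% and 17.3% to 28.7% at 3.0015 kb. Spi1 had 82.3% to 87.6%, 25.02% to 33.7% and 32.8% to 37.4% at 14.9535 kb.

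Between E14.5 and E18.5 liver 16 member tiles (3.99%) were called higher and 0 lower, against 1.1% and 0.0443% of all tiles. They lay in Zfpm1 (7), Ikzf1 (4), Gfi1b (3), Runx1 (1) and Klf1 (1). All were also lower in E14.5 liver than in E10.5 embryo, a contrast in which 49.8% of all tiles were called lower. The same E14.5 livers enter both contrasts, so a tile low in them tends towards both differences. How many of all tiles called higher at E18.5 were also lower in E14.5 liver than in embryo was not counted. The pattern is thus not shown to be particular to the member tiles. An example among the 16 is Gfi1b at 5.0015 kb, with 67.3% to 74.5%, 17.7% to 21.5% and 36.9% to 50.2% in the 3 tissues. Ikzf1 at 50.4945 kb had 80.0% to 87.6%, 16.2% to 23.9% and 39.0% to 54.2%. Fetal liver is known to pass in this span from mostly erythroblasts to mostly hepatoblasts, and cell makeup and stage cannot be told apart here.

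**Figure D3:**
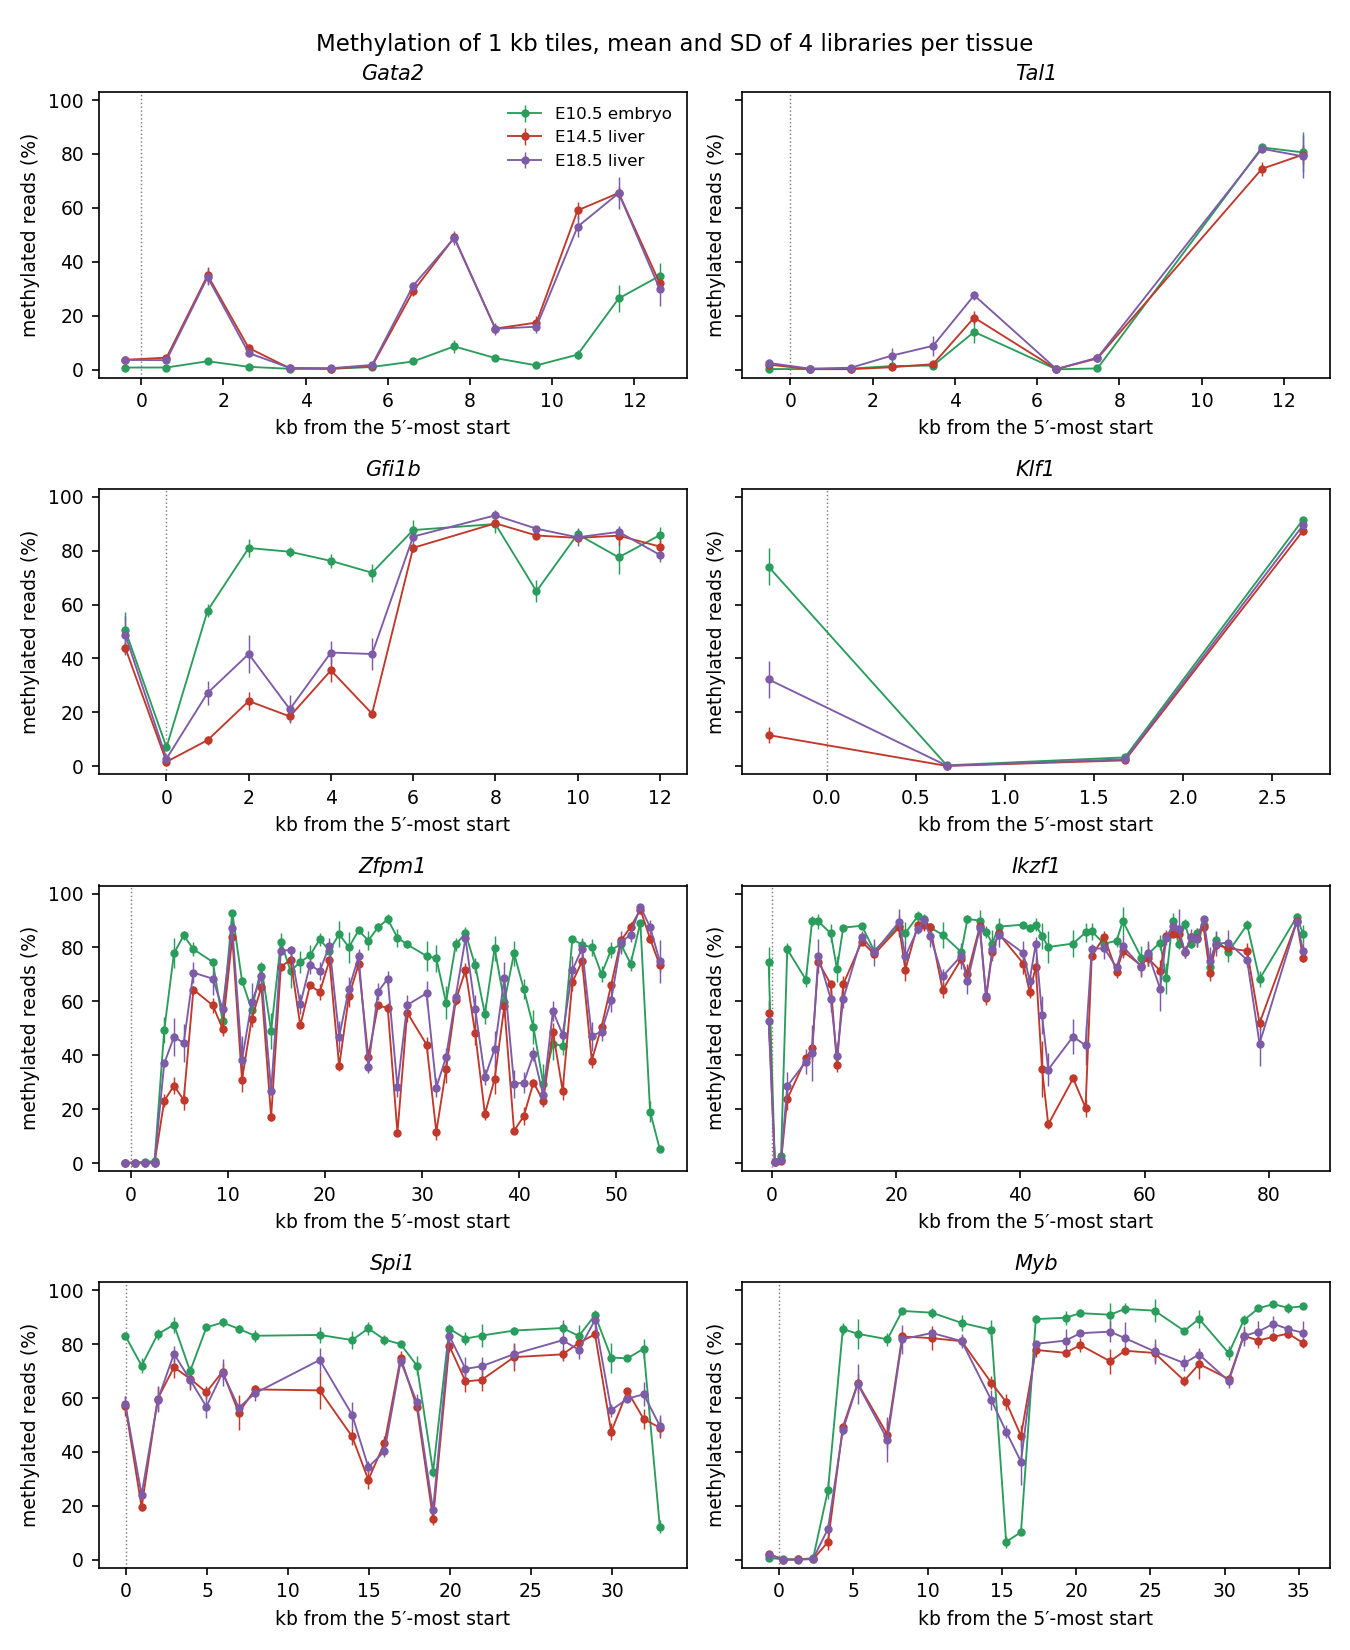
Methylation along 8 of the genes in 1 kb tiles, in percent of methylated reads against kb from the 5′-most start (dotted line), as the mean of 4 libraries per tissue with SD bars. Gata2 and the 3′ coding exon of Zfpm1 (5.14% in E10.5 embryo, 73.3% in E14.5 liver) are more methylated in liver, and intronic Zfpm1 tiles less.

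To ask whether loss of Rlf altered methylation at these genes, mutant and wild type were compared in each tissue. At the promoters 0 of 9 members were called in E10.5 embryo, E14.5 liver or E18.5 liver, where 2.28%, 1.28% and 0.808% of all promoters were called, and 0 over the mean of 3 tissues, where 8.3% were. By unadjusted p under 0.05 there were 1, 1, 0 and 2 of 9 members, and 2783, 2196, 2014 and 4233 of all 19186 promoters. The members' median differences in the 3 tissues were 0.014, 0.059 and -0.022 points, and those of all promoters 0.361, 0.379 and 0.198 points. In the Runx1 and Spi1 promoters, which have room to move both ways, the differences over the mean of tissues were -1.42 and 1.56 points.

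In the bodies 0 of 9 were called in any single tissue, where 3%, 1.17% and 0.974% of all bodies were called. Fitted on the embryos alone, Runx1 (adjusted p = 0.00206) and Tal1 (adjusted p = 0.039) were called in E10.5 embryo, among 2472 bodies against 543 in the fit of all libraries. Over the mean of 3 tissues 1 member was called, Runx1, where 16.6% of all bodies were. Runx1 had 68.0% and 69.0% in wild-type and 72.1% and 72.6% in mutant embryos. It had 61.1% and 63.4% against 65.1% and 64.5% in E14.5 livers, and 64.3% and 63.5% against 69.1% and 64.5% in E18.5 livers. Mutants lay above wild types in every tissue, by 3.12 points on average (adjusted p = 0.0156). Methylation over all autosomes was also higher in the mutants of E10.5 and E14.5, with overlap at E18.5. It was 70.4% and 71.8% in wild-type against 73.1% and 73.8% in mutant embryos, 56.3% and 58.4% against 60.2% and 59.1% in E14.5 livers, and 61.2% and 61.6% against 65.4% and 61.3% in E18.5 livers. The study averaged CpG methylation over windows, another measure than these read-weighted means, and reported an overall level unaffected by loss of Rlf. The part of the autosomal level in the Runx1 difference was not tested. The call is weak, since it was lost with the replicate block (adjusted p = 0.0763), with limma (adjusted p = 0.0821) and without any 1 of 8 libraries. It held without E10.5 wild-type replicate 2, E14.5 wild-type replicate 2 or either E18.5 mutant. All 9 members had a higher mean in mutants, with a median of 1.72 points, against 1.54 points over all bodies. Without E18.5 mutant replicate 2, which leaves only the library that stands apart in that group, 5 members were called along with 10661 bodies.

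Of the 401 tiles, 3 were called between genotypes in E10.5 embryo (0.243% of all tiles were) and 0 in E14.5 liver (0.0816%) or E18.5 liver (0.125%). All 3 lie in Runx1 and were more methylated in mutants. Adjacent tiles at its 3′ end had the largest differences. The tile chr16:92606001-92607000, 219.81 kb from the distal start, covers coding exon sequence, with 42 CpGs and the printed second Runx1 stretch. It had 7.61% and 8.25% in wild-type and 41.2% and 24.6% in mutant embryos (24.95 points, adjusted p = 1.04e-10). The next, chr16:92605001-92606000 with 17 CpGs, had 9.30% and 12.8% against 45.6% and 36.0% (29.7 points, adjusted p = 7.12e-08). In both tiles the 2 mutant embryos lay well above the wild types and also differed from each other. Without any 1 embryo the differences remained 16.7 to 33.2 and 24.9 to 34.5 points and past the threshold.

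These tiles were much more methylated in liver than in embryo, whatever the genotype. The first had 75.9% and 66.8% in wild-type and 77.5% and 69.7% in mutant E14.5 livers. At E18.5 it had 63.5% and 53.8% against 67.7% and 69.0%. The second had 75.5% and 70.0% against 78.8% and 71.6% at E14.5, and 62.2% and 68.4% against 60.8% and 81.3% at E18.5. Mutant embryos thus lay between wild-type embryos and livers. The nearest measured tile on the 5′ side, 3 kb away at 216.81 kb, had 31.0% in wild-type and 29.3% in mutant embryos. The tile after them, at 221.81 kb, had 93.2% and 94.3%, which leaves little room for a rise. The interaction of genotype and tissue, examined after seeing the data, was called in both tiles (E14.5 liver minus E10.5 embryo, -22.7 and -27.3 points), where 0.00159% of all tiles were called, and in 0 member tiles between E18.5 and E14.5 liver, where 0.000397% were. The third tile, chr16:92674001-92675000 in an intron, had 66.7% and 69.8% against 82.6% and 85.7% (15.9 points, adjusted p = 0.00106), and its call was lost without wild-type replicate 1 (adjusted p = 0.105) or mutant replicate 2 (adjusted p = 0.112).

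**Figure D4:**
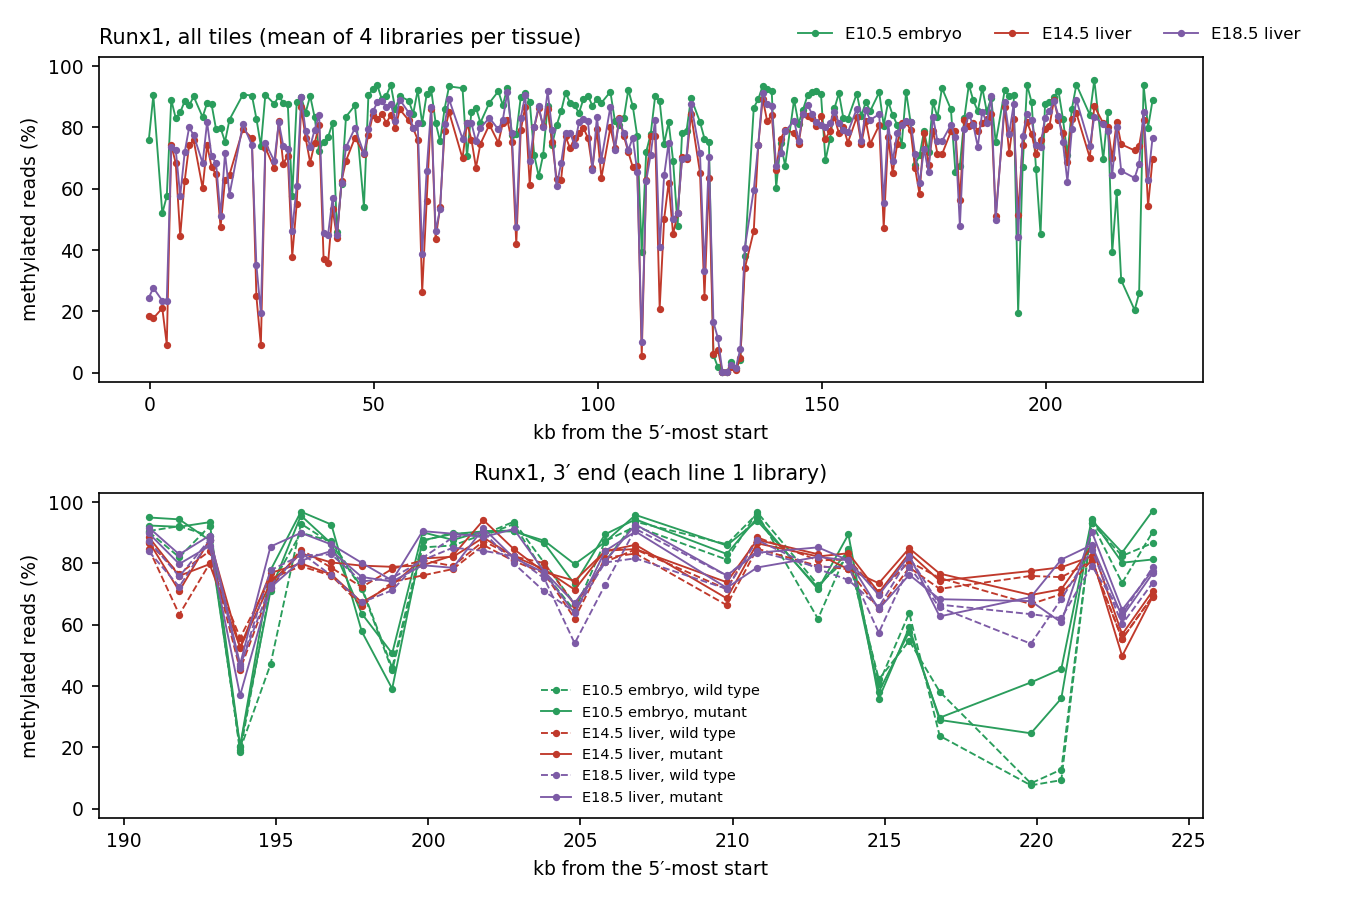
Methylation along Runx1 in 1 kb tiles, in percent of methylated reads against kb from the distal start, as the mean of 4 libraries per tissue (upper) and for each library at the 3′ end (lower, dashed for wild types and solid for mutants). The proximal start near 128.738 kb lies near 0 in all tissues, and in the tile at 219.81 kb the mutant embryos (41.2% and 24.6%) lie between the wild-type embryos (7.61% and 8.25%) and the livers.

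Gata1, on chromosome X, was described by library, since sex differs between the tissues. Its promoter window had 87.2% to 94.6% in the male E10.5 embryos. In E14.5 livers it had 85.8% and 90.0% in males and 74.8% and 78.0% in females, with wild types first, and in the female E18.5 livers 76.0% to 82.2%. Every library thus had a methylated window at the 5′-most start, in a gene that stood above 96.4% of genes in liver RNA. The start 10.161 kb inside had 79.3% to 86.2% in embryos. It had 17.9% and 22.8% in male and 40.1% and 44.1% in female E14.5 livers. At E18.5 it ranged over 47.7% to 61.9%. At this start the male E14.5 livers were the lowest and no liver overlapped an embryo. The body had 81.7% to 85.9%, 52.8% to 60.9% and 62.5% to 69.4% in the 3 tissues.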

How the data were processed

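The members and gene lists were chosen with earlier results of these data known. RNA-seq counts per gene were deposited by the authors (Tophat, htseq-count, Ensembl 67, unstranded, mm9) without normalization. For WGBS the deposited counts of methylated and unmethylated reads per CpG came from Bismark with Bowtie2 on mm9 carrying FVB substitutions, with the sexes and groups as per the labels. The authors also deposited a percent of methylated reads per CpG, rounded from the same counts, which was not used. H3K4me1 ChIP-seq was not analysed here. Counts per gene were tested with edgeR 4.0.16 (TMM, filterByExpr with a minimum of 10, quasi-likelihood, Benjamini-Hochberg) in R 4.3.3, with DESeq2 1.42.0 as the other tool. Methylated and unmethylated reads were summed per window over the CpGs that had 6 reads or more in each of the 12 libraries (5 or more such CpGs a window), and tested with edgeR with 1 intercept per library and 6 groups of tissue and genotype that share 1 estimate of spread, or with limma 3.58.1. Gene models were those of GENCODE vM1 on NCBIM37. All 10 members are named in the RNA-seq comparison. In the tests of promoters and bodies, which leave out Gata1, those past the threshold are named, as are those of the gene lists. Same-numbered RNA-seq livers deviated together (r = 0.155, 0.220 and 0.426 over 14183 genes), so these numbers were taken as pairs from the data, and replicate 3 is the female of each genotype. On simulated data a log2 change of 1 between RNA genotypes was called in 89.8% of 98 genes among 14052 and unchanged genes in 0.115%. A shift of 10 points between body genotypes in E14.5 liver was called in 37% of 100 windows among 6000, of 20 points in 99%. The spread of the body simulation was a fixed setting and was not taken from these libraries. The smallest two-sided p of 2 libraries against 2 by exact permutation is 0.33, so calls rest on the shared spread. P-values measure the spread between these samples, for WGBS mainly the spread shared over windows rather than that of the single window. This spread may be partly technical where separate animals are not stated. Alternatives were the tool, scaling, filters, covariates, coverage, window, tile width and each library left out.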

Additional observations from a re-analysis of the deposited data

Results flagged for a closer look

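The difference between the genotypes itself differed between tissues in 2 tiles, both at the 3′ end of Runx1, by the interaction of genotype and tissue in the edgeR fit over all tiles, a comparison chosen after seeing the data. In the tile chr16:92606001-92607000 the mutant minus wild-type difference was 22.7 points smaller in E14.5 liver than in E10.5 embryo (-22.7 points, adjusted p = 0.000604). In the tile chr16:92605001-92606000 the change was -27.3 points (adjusted p = 0.0108). In E10.5 embryo both mutants lay above both wild types in each tile, and in E14.5 liver the genotypes overlapped. Of all 503471 tiles, 8 were called for this interaction (0.00159%). Between E18.5 and E14.5 liver 2 tiles were called (0.000397%), and 0 of them were in the members. In promoters and bodies 0 of 36 interactions of the members were called, with 1 at an unadjusted p under 0.05 by edgeR. Over all genes 0 of 19186 promoters were called in either interaction, with 920 and 694 at an unadjusted p under 0.05, and 6 and 1 of 18076 bodies, with 369 and 242. E10.5 samples are whole embryos, and tissue and stage cannot be told apart here. The embryos are all male and the E14.5 livers hold both sexes in each genotype, and the part of sex was not tested.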

How the results depend on the processing

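The RNA-seq comparison called 0 members under every alternative run, while the genes called in all went from 197 to 257 with DESeq2, 532 without the filter on low counts, 460 with the replicate block and 66 to 224 with 1 liver left out. Among promoters, the genotypes over the mean of 3 tissues gave 0 members, 1 with limma (Gfi1b), 1 with every coding start (Tal1, chosen after seeing the data) and 0 to 1 with 1 library left out. E18.5 against E14.5 liver gave 5 promoters among 4764 of all genes, and 2 among 454 in wild types alone. Runx1 was lost without any 1 liver but E18.5 wild-type replicate 2 and E18.5 mutant replicate 2, and Gfi1b without E14.5 wild-type replicate 1, E14.5 mutant replicate 1, E18.5 wild-type replicate 2 or E18.5 mutant replicate 1. With the start of the longest coding transcript, the Gata2 promoter turned from higher to lower in E14.5 liver (-0.167 points, not called) and Ikzf1 from higher to lower (-27.4 points), since other starts were then measured. Among bodies, the genotypes in E10.5 embryo gave 2 members when fitted on the embryos alone (Tal1 and Runx1, among 2472 bodies), those in E18.5 liver 0 to 2 with 1 library left out, and the mean of 3 tissues 0 with the replicate block, 0 with limma and 0 to 5 with 1 library left out. The upper ends for E18.5 liver and for the mean are without E18.5 mutant replicate 2, where 8603 bodies were called in E18.5 liver. E14.5 liver against E10.5 embryo gave 7 to 8 bodies and E18.5 against E14.5 liver 2 to 4 with 1 library left out. Among member tiles, a minimum of 25 points left 1 of 3 in E10.5 embryo (0.249%, against 0.0296% of all tiles), 83 (from 135 lower and 22 higher) between E10.5 embryo and E14.5 liver (20.7%, against 14.4%) and 0 of 16 between the livers (0.027% of all). Tiles of 500 bp gave 26 for the last, among 6824 of all genes. Leaving out 1 library leaves 1 library in a group. The counts then moved in each of these comparisons, in the member tiles and over all tiles. In E18.5 liver some member tiles were then called between genotypes, and the calls over all tiles moved as well. Same-numbered WGBS libraries did not deviate together (r = 0.0355, 0.00166 and -0.0135 over 503471 tiles), so their numbers gave no pairing, and the block changed no other count of members by over 1.5 times. Of single member values under other settings, 110 of the RNA-seq comparison kept their side of the threshold, as did 669 of promoters and 656 of bodies. A call was lost by 16 promoter and 20 body values and gained in the same direction by 6 and 17. For limma the direction was that of the summed reads, not of its own fit. Another 2 promoters turned (Gata2, which lost its call, and Ikzf1, which gained one). A difference of 10 points in a body was called in 37% of simulated windows, so smaller ones can be missed at that spread. The simulated spread was a fixed setting and was not taken from these libraries. The cause of the changes between settings was not tested.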
